A study of Mus musculus with 6 samples.

Results

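Axon guidance ligands and receptors were followed in neurospheres, floating clusters of neural precursor cells, after transfection with an oligonucleotide meant to block the microRNA miR-335. The members are the genes of the 4 classical guidance systems: Eph receptors and ephrins; semaphorins, plexins and neuropilins; Slits and Robo receptors; netrins with Dcc and the Unc5 receptors. They were taken by gene symbol. The array read 66 such genes with 82 probes, of 34967 gene probes in all, of which 21615 carry a single symbol. The Eph and ephrin system has 26 probes for 21 genes, the semaphorin system 36 probes for 30 genes, the Slit and Robo system 9 probes for 6 genes and the netrin system 11 probes for 9 genes.

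Both groups were cultures of cortical neuroepithelium from the dorsal telencephalon of C57BL/6 mouse fetuses at embryonic day 12.5. They were grown as neurospheres in serum-free medium with insulin, transferrin, selenium, heparin, progesterone, bFGF at 20 ng/ml, EGF at 20 ng/ml and LIF at 0.15 ng/ml. The 3 anti-miR-335 cultures received a 2'-O-methyl oligonucleotide labelled 2' O Me-335, and the 3 controls a nonsense 2'-O-methyl oligonucleotide labelled 2' O Me-EGFP, so the control cells were transfected too. The labels give the duration as 24 without a unit. They call the replicates independent and do not say which step was done anew, so each p-value refers to the spread among these 6 samples, which may be technical. No check of the block was made, since the level of miR-335 was not analysed here. The comparison asks which guidance genes differ in RNA level between the anti-miR-335 and the control cultures.

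Guidance cues steer growing axons and migrating cells. Ephrins are membrane-bound ligands of the Eph receptor tyrosine kinases, and cells that carry either can signal into each other on contact. Semaphorins act through plexins, and the secreted class 3 semaphorins mostly need a neuropilin as co-receptor. Slits are secreted repellents read by Robo receptors, while netrins attract through Dcc and repel through Unc5 receptors. In the embryonic cortex these systems also act on radial glia and precursor cells, the cells from which neurospheres grow.

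The oligonucleotide is labelled as antisense to miR-335, whose mature sequences are shown because it was directed against this microRNA. The labels do not name the arm, so both are given in the RefSeq sequences of build GRCm38.p6, 5′ to 3′, with the seed (bases 2 to 8) in capitals; they lie on the plus strand at chr6:30741314-30741336 and chr6:30741354-30741375. Sites for these seeds in the guidance transcripts were not analysed here.
mmu-miR-335-5p: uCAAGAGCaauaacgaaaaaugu
mmu-miR-335-3p: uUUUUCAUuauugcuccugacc

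Each intensity is relative to its array's median. Values are listed by replicate number and summarised as mean ± SD with n = 3 per group. The array medians lay between 0.991 and 0.996, and between 59.9% and 67.3% of gene probes were above the background limit, which was set from the negative control spots at 0.492 to 0.692. Control replicate 1 had the lowest median of the spiked-in positive control spots, 3.49, and the highest of the other 5 arrays had 5.19. Of the neural precursor markers, 7 of 8 were above background on at least 3 arrays, with summed intensities of 291 to 311 in the controls and 315 to 342 after anti-miR-335. The dorsal telencephalon genes Emx2, Lhx2 and Pax6 were above background on at least 3 arrays and Emx1 on none, while 6 of 7 ventral telencephalon markers were above it. In such bulk cultures, fewer cells of a type and less RNA per cell cannot be told apart.

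Receptors were detected more completely than ligands. All 9 plexins, all 3 Robo receptors, both neuropilins, Dcc, 3 of 4 Unc5 receptors and 9 of 13 Eph receptors had a probe above background on at least 3 arrays. Among the ligands this held for 5 of 8 ephrins, 11 of 19 semaphorins, 1 of 3 Slits and 1 of 4 netrins. Over all 66 genes, 45 had such a probe, 7 were above background on only 1 or 2 arrays with their best probe and 14 on none. The 14 were Epha1, Efnb2, Slit1, Slit3, Ntn1, Ntn4, Unc5a, Sema3b, Sema3c, Sema3d, Sema3f, Sema6b, Sema6c and Sema7a. The 7 were Epha2, Epha7, Epha10, Efna1, Efnb1, Ntn5 and Sema4d. Epha7 was above background on 1 array of each group, and the others of these genes on no array of one or both groups. The difference between detection of ligands and receptors was not tested.

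No guidance gene passed the test in the fit of all 6 arrays. Of the 82 probes, 0 had an adjusted p under 0.05 with limma, and the same held for all 34847 gene probes tested (0.0%). The smallest adjusted p among the members was 0.41, for the semaphorin Sema4g. At an unadjusted p under 0.05 there were 10 member probes (12.2%), 4 higher and 6 lower after anti-miR-335, beside 9.07% of all gene probes, 4.91% higher and 4.17% lower. The 4 higher ones read Epha4, Nrp1, Plxnb1 and Plxnb3. Of the 6 lower ones, Efna3, Robo2 and Sema4g were above background, and the probes for Epha2, Slit1 and Unc5d were above it on no array. The group values did not overlap for 19 member probes (23.2%), 11 higher and 8 lower, beside 14.7% of all gene probes, 7.46% higher and 7.25% lower. Of these 19, 12 were above background on at least 3 arrays, 8 higher and 4 lower. They were 23.5% of the 51 such member probes, beside 17.3% of all such gene probes, 9.34% higher and 7.95% lower.

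The members did not share a direction as a whole, while individual families leaned to one side. The median log2 difference, anti-miR-335 minus control, was 0.05 over the 82 probes, 42 positive and 40 negative, beside 0.01 over all gene probes, 18097 positive and 16748 negative. For the 41 ligand probes it was -0.07, with 15 positive and 26 negative. Without control replicate 1 the ligands had 20 positive and 21 negative differences with a median of -0.024, and without anti-miR-335 replicate 3 also 20 and 21, with a median of -0.029. For the 41 receptor probes the median was 0.13, with 27 positive and 14 negative. Plexin probes had a median of 0.29 and 10 of 11 were positive, or 9 of 11 without anti-miR-335 replicate 1. Ephrin probes had a median of -0.24 and all 9 were negative, but only 8 of 9 after quantile normalization, with either other floor or without control replicate 1, 7 of 9 without anti-miR-335 replicate 3 and 6 of 9 without control replicate 2. Members were read on the same 6 arrays and are not replicates of each other, and the leaning of a family was not tested.

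**Figure D1:**
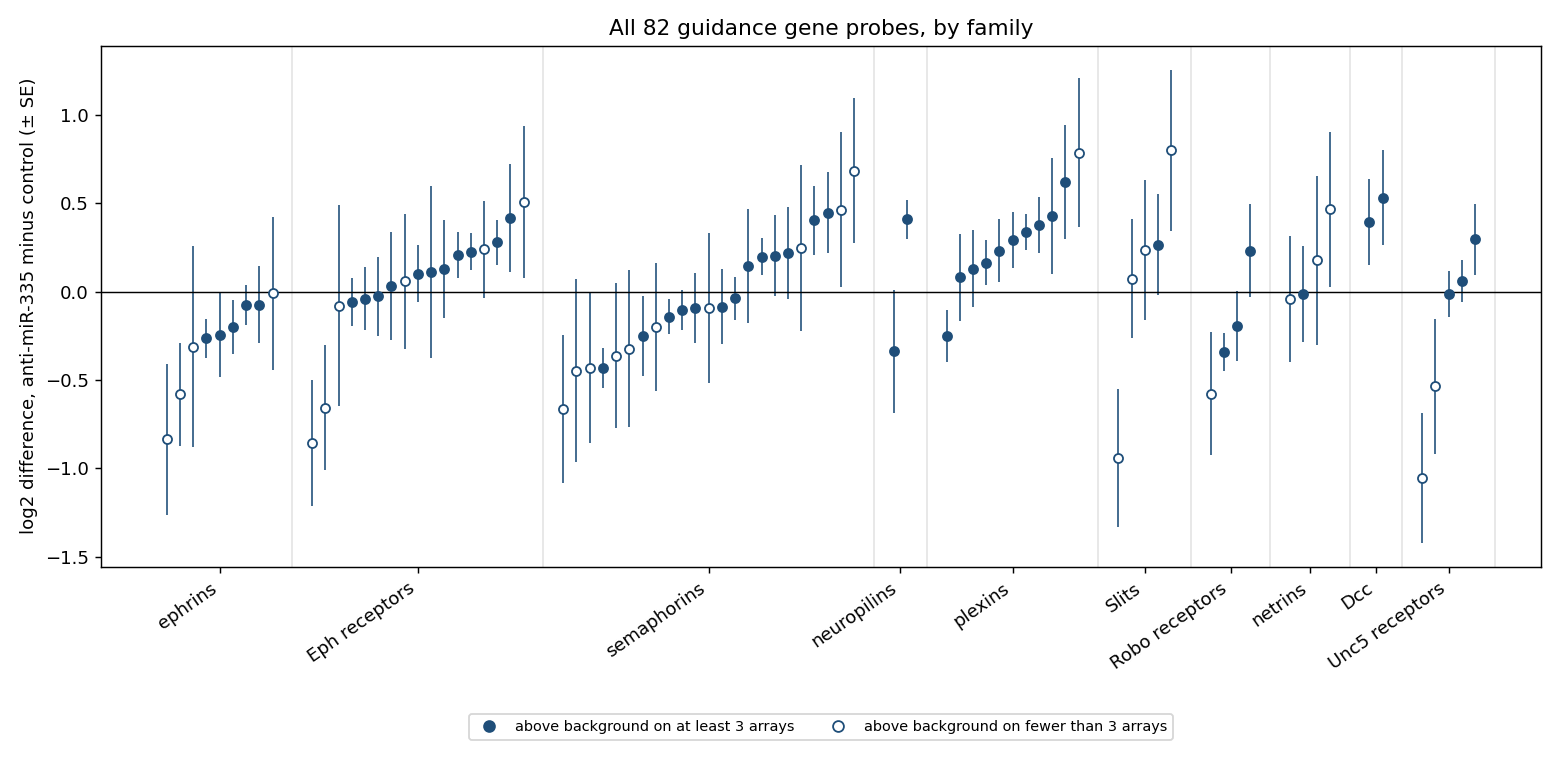
Log2 difference in intensity, anti-miR-335 minus control, with its standard error for each of the 82 guidance probes, sorted within families; filled points were above background on at least 3 arrays and open points on fewer. All 9 ephrin points lie below 0 (8 of 9 after quantile normalization, which is not drawn) and 10 of 11 plexin points above it, and the longest error bars belong to open points.

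Among the ephrin ligands, the clearest values were those of Efna3, a ligand anchored to the membrane by a lipid. Its intensity was 22.5, 20.4 and 23.1 in the controls and 17.3, 20.7 and 17.1 after anti-miR-335. Anti-miR-335 replicate 2 lay above control replicate 2, so the groups overlapped, and the other anti-miR-335 arrays lay below every control. The means were 22.0 ± 1.40 and 18.4 ± 2.02, a log2 difference of -0.26 ± 0.11 (SE; limma, adjusted p = 0.528). Efna5, known for shaping topographic maps of axons, ranged from 1.86 to 2.59 with a log2 difference of -0.20 ± 0.15 on its probe above background. Efna2, Efna4 and Efnb3 differed by -0.07 ± 0.22, -0.24 ± 0.24 and -0.07 ± 0.11. Efnb1, a transmembrane ephrin, was above background on 1 control array and on no anti-miR-335 array (limma, adjusted p = 0.594), and no fold is given.

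Of the Eph receptors, Epha4, Ephb1 and Ephb3 had higher values on every anti-miR-335 array than on any control, without passing the test. Epha4, a receptor that binds both ephrin classes, read 3.88, 3.31 and 3.07 in the controls and 4.12, 4.16 and 4.12 after anti-miR-335. Control replicate 1 came closest to the anti-miR-335 arrays, which lay within a narrow range. The means were 3.42 ± 0.418 and 4.13 ± 0.0223, a log2 difference of 0.28 ± 0.13 (adjusted p = 0.55).

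Ephb3, a receptor for B-class ephrins, read 20.6, 19.6 and 19.2 in the controls and 22.3, 25.8 and 21.5 after anti-miR-335. Replicate 2 was the highest of the anti-miR-335 arrays and the 3 controls lay close together. The means of 19.8 ± 0.716 and 23.2 ± 2.31 gave a log2 difference of 0.23 ± 0.11 (adjusted p = 0.564). Ephb1, another B-class receptor, read 2.64, 2.24 and 2.34 against 2.68, 2.86 and 2.78. Control replicate 1 was just below the lowest anti-miR-335 array, and the log2 difference was 0.21 ± 0.13 (adjusted p = 0.674). Epha6 read 1.93, 2.03 and 1.99 in the controls against 1.88, 1.93 and 1.91. Its groups did not overlap, by a margin smaller than the spread within either group, and its log2 difference was -0.06 ± 0.14.

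The remaining Eph receptors above background lay nearer to their controls. Ephb4, studied chiefly in veins and arteries, ranged from 1.67 to 2.52 with a log2 difference of -0.04 ± 0.18. Epha5 differed by 0.10 ± 0.16 and 0.03 ± 0.30 on 2 probes above background, Epha3 by 0.42 ± 0.31 and 0.11 ± 0.49 on 2 probes, Epha8 by -0.03 ± 0.22 and Ephb6, a receptor whose kinase is inactive, by 0.13 ± 0.28. Over all 17 Eph receptor probes, 11 were positive with a median of 0.10, which ran from -0.0015 to 0.22 over the alternatives.

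In the semaphorin system, the transmembrane semaphorin Sema4g had the smallest p of any member. On probe GE118964 it read 36.9, 32.3 and 38.6 in the controls and 25.1, 29.4 and 25.6 after anti-miR-335. Every anti-miR-335 array lay below every control, and replicate 2 was the highest of the former and the lowest of the latter. The means of 35.9 ± 3.26 and 26.7 ± 2.33 gave a log2 difference of -0.43 ± 0.11 (adjusted p = 0.41). The other Sema4g probe, GE36062, read 18.9, 15.0 and 14.7 against 14.7, 16.9 and 15.5. Its groups overlapped and its log2 difference was -0.04 ± 0.12, so the 2 probes of the gene did not give the same size of difference.

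Sema3a, the secreted repellent known for collapsing growth cones, read 0.727, 0.568 and 0.582 in the controls and 0.822, 0.816 and 0.909 after anti-miR-335. The groups did not overlap, and 1 control array and all 3 anti-miR-335 arrays were above background. The log2 difference was 0.45 ± 0.23 (adjusted p = 0.601). Sema6d, a transmembrane semaphorin, had 3 probes. GE38493 read 22.8, 13.2 and 12.7 in the controls and 20.7, 19.4 and 22.1 after anti-miR-335. Control replicate 1 was the highest of the 6 values there, while the other controls lay below every anti-miR-335 array. The log2 difference was 0.40 ± 0.19 (adjusted p = 0.576). GE1397234 read 12.8, 12.3 and 12.5 against 10.7, 12.4 and 11.0, with a log2 difference of -0.14 ± 0.10. The values of these probes for a single gene thus lay on opposite sides of 0, and GE1559820 was above background on no array.

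The other semaphorins above background were Sema3e, Sema4a, Sema4b, Sema4c, Sema4f, Sema5a, Sema5b and Sema6a. Sema4c, a ligand of Plxnb2 in the developing brain, ranged from 14.6 to 18.3 over the 6 arrays with a log2 difference of 0.20 ± 0.10 (adjusted p = 0.608). Sema5b ranged from 4.60 to 5.75, with a difference of -0.10 ± 0.11, and Sema4b from 4.60 to 7.72, with a difference of -0.08 ± 0.21. For the others the log2 differences ran from -0.25 for Sema3e to 0.22 for Sema6a. The 23 semaphorin probes together had 9 positive and 14 negative differences with a median of -0.09, which became 0.02 without control replicate 1.

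The neuropilin Nrp1, co-receptor of class 3 semaphorins and of VEGF, had clearly separate groups. It read 3.57, 3.82 and 3.62 in the controls and 4.64, 4.83 and 5.17 after anti-miR-335. Every anti-miR-335 array lay above every control, and the gap between the groups was wider than the spread within either. The means of 3.67 ± 0.13 and 4.88 ± 0.265 gave a log2 difference of 0.41 ± 0.11, or 1.33-fold (limma, adjusted p = 0.412). Nrp2 ranged from 0.387 to 1.11 with a log2 difference of -0.34 ± 0.35. Endothelial cells also express Nrp1 and Plxnd1. Of 8 endothelial markers, 3 were above background on at least 3 arrays, Pecam1, Cdh5 and Flt1 were above it on no array, and the summed intensity was 3.12 to 4.38 in the controls and 2.51 to 4.71 after anti-miR-335. Those ranges overlapped, and single markers lay on both sides: 2 of the 8 had higher and 2 lower values after anti-miR-335 without overlap, with log2 differences over the list from -0.87 to 1.03. The markers without overlap were 50% of the list, beside 14.7% of all gene probes, and 0 of the 8 were above background on all 6 arrays. The part of endothelial cells in the values of Nrp1 and Plxnd1 was not tested.

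Plexins are the signalling receptors of semaphorins. Plxnb1, the receptor of Sema4d, read 18.5, 15.6 and 16.5 in the controls and 20.7, 21.4 and 21.6 after anti-miR-335. All anti-miR-335 arrays lay above all controls, and control replicate 1 was the nearest of these. The means of 16.9 ± 1.48 and 21.3 ± 0.464 gave a log2 difference of 0.34 ± 0.10 (limma, adjusted p = 0.444). Plxnb3, a receptor of Sema5a, read 6.44, 4.73 and 4.16 against 7.12, 5.98 and 6.54. Control replicate 1 lay inside the anti-miR-335 range and the other controls below it. The log2 difference was 0.38 ± 0.16 (adjusted p = 0.528).

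Plxnd1, a receptor of Sema3e, read 11.0, 7.62 and 7.39 in the controls and 9.25, 11.7 and 10.6 after anti-miR-335. Here too control replicate 1 lay among the anti-miR-335 arrays, above the other controls, and the log2 difference was 0.29 ± 0.16 (adjusted p = 0.623). Plxnb2 ranged from 30.8 to 42.8, with a log2 difference of 0.17 ± 0.13. Plxna3, which forms complexes with neuropilins, read 0.393, 0.890 and 0.878 against 1.13, 1.10 and 0.898. Control replicate 1 was the one array below background, the groups did not overlap, and the log2 difference of 0.62 ± 0.32 became 0.23 without that array.

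Plxnc1, the receptor of Sema7a, was the single plexin with lower values after anti-miR-335. It read 1.95, 1.74 and 1.79 in the controls and 1.50, 1.55 and 1.55 after anti-miR-335. Both groups were narrow and did not overlap, with means of 1.83 ± 0.109 and 1.54 ± 0.0267 and a log2 difference of -0.25 ± 0.15 (adjusted p = 0.652). Plxna1, Plxna2 and Plxna4 had positive differences on all their probes above background. These ran from 0.08 for Plxna1 to 0.43 on the Plxna4 probe GE134230, with adjusted p-values (limma) from 0.73 to 0.95. Control replicate 1 was low on that probe, and without it the differences of the 2 Plxna4 probes above background were 0.018 and 0.00014.

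**Figure D2:**
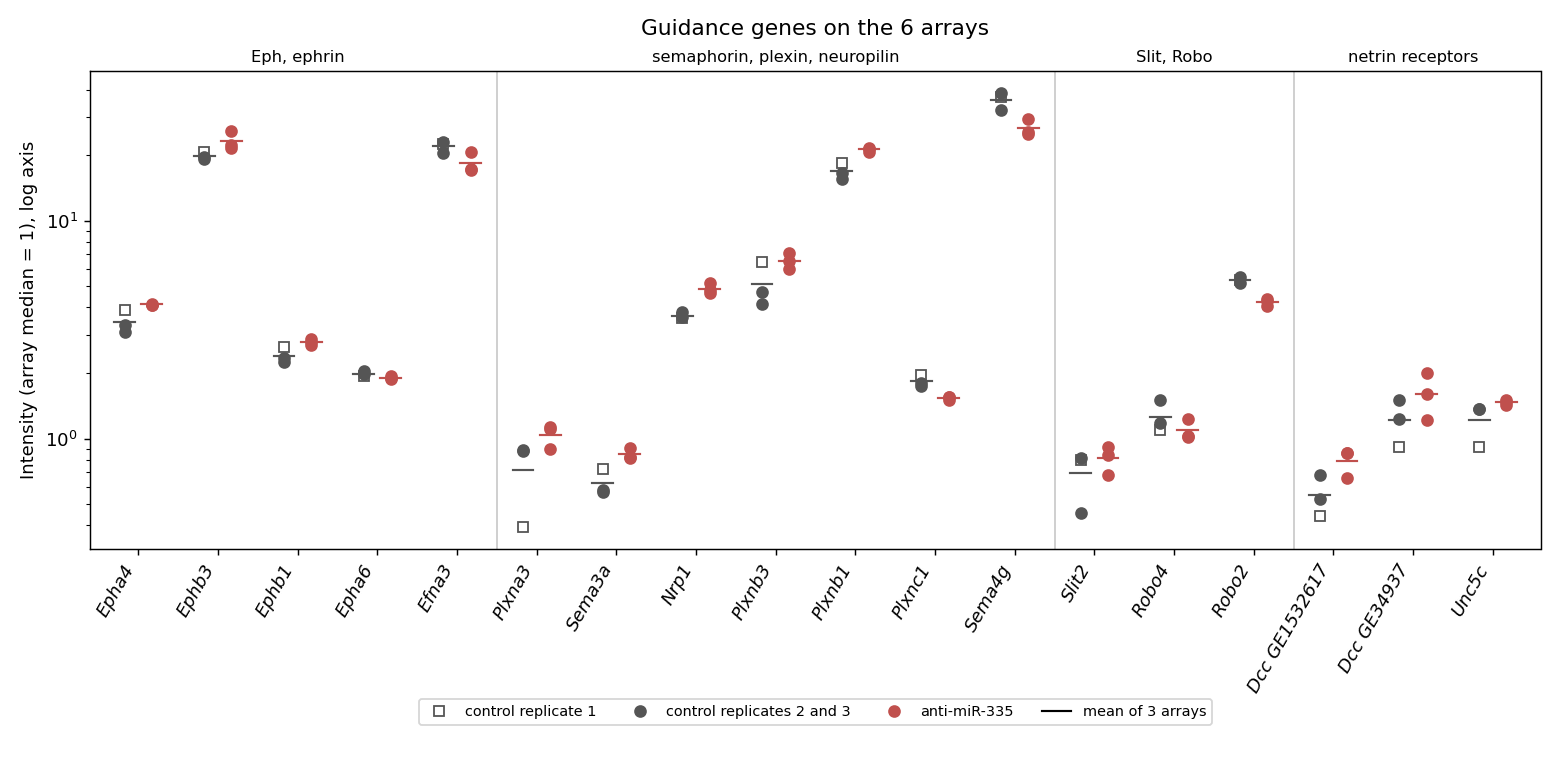
Intensity in units of the array median, on a log axis, of the 18 guidance probes that were above background on at least 3 arrays and either had an unadjusted p under 0.05, group values that did not overlap, or one of the 3 smallest p-values of their system. Each point is 1 array, the open square is control replicate 1 and bars are means of 3 arrays. The groups are apart for Nrp1, Plxnb1, Robo2 and Sema4g, while control replicate 1 lies among or near the anti-miR-335 points for Epha4 and Plxnb3.

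In the Slit and Robo system, the receptor Robo2 had lower values after anti-miR-335. On probe GE126540 it read 5.36, 5.54 and 5.20 in the controls and 4.04, 4.39 and 4.30 after anti-miR-335. The groups did not overlap and the gap between them exceeded the spread within each. The means of 5.37 ± 0.169 and 4.24 ± 0.18 gave a log2 difference of -0.34 ± 0.11 (limma, adjusted p = 0.452). The other Robo2 probe, GE1484911, was above background on no array, with a log2 difference of -0.58 ± 0.35. Robo4, a receptor known from blood vessels, read 1.09, 1.18 and 1.50 against 1.03, 1.23 and 1.01. Its groups overlapped, with a log2 difference of -0.19 ± 0.20.

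Robo1, a Slit receptor closely related to Robo2, read 4.93, 2.71 and 2.13 in the controls and 4.24, 3.42 and 3.18 after anti-miR-335. Control replicate 1 was the highest of the 6 arrays and the other controls were the lowest. The log2 difference was 0.23 ± 0.26 (limma, adjusted p = 0.829) with all arrays and 0.58 without control replicate 1 (adjusted p = 0.079). Robo1 did not meet the rule for listing values and is given here after its values were seen. Slit2 was the only Slit above background on at least 3 arrays. On probe GE111774 it read 0.801, 0.818 and 0.455 against 0.841, 0.911 and 0.678. The groups overlapped, with a log2 difference of 0.27 ± 0.29. Its probe GE33354 was above background on no array.

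In the netrin system, both Dcc probes had positive differences, and neither passed the test. On probe GE34937 Dcc, the receptor through which netrin attracts axons, read 0.915, 1.24 and 1.51 in the controls and 1.21, 1.61 and 1.99 after anti-miR-335. The groups overlapped, and the means of 1.22 ± 0.297 and 1.60 ± 0.39 gave a log2 difference of 0.39 ± 0.24 (adjusted p = 0.668), which became 0.20 without control replicate 1. GE1532617 read 0.440, 0.683 and 0.530 against 0.656, 0.860 and 0.857. It was above background on 1 control array and 2 anti-miR-335 arrays, the groups overlapped, and the log2 difference was 0.53 ± 0.27.

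Unc5c, a receptor that turns netrin into a repellent, read 0.917, 1.36 and 1.36 in the controls and 1.50, 1.47 and 1.43 after anti-miR-335. Control replicate 1 was low, every anti-miR-335 array lay above every control, and the log2 difference of 0.30 ± 0.20 (adjusted p = 0.691) became 0.11 without control replicate 1. Unc5b ranged from 3.57 to 4.28 and Unc5d, on its probe above background, from 2.32 to 2.72, with log2 differences of 0.06 ± 0.12 and -0.01 ± 0.13. Ntn3, the single netrin above background on at least 3 arrays, ranged from 0.490 to 0.782 with a log2 difference of -0.01 ± 0.27.

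For 13 genes with several probes, the probes did not always give the same direction. All probes of a gene had the same sign for 10 of the 13. The differences of the Sema4g probes GE118964 and GE36062 had the same sign but not the same size, and those of the Sema6d probes GE38493 and GE1397234 had opposite signs. Only 6 of the 13 genes had at least 2 probes above background on at least 3 arrays. Where on each transcript the probes lie was not analysed here, so alternative transcripts and probe quality cannot be told apart.

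**Figure D3:**
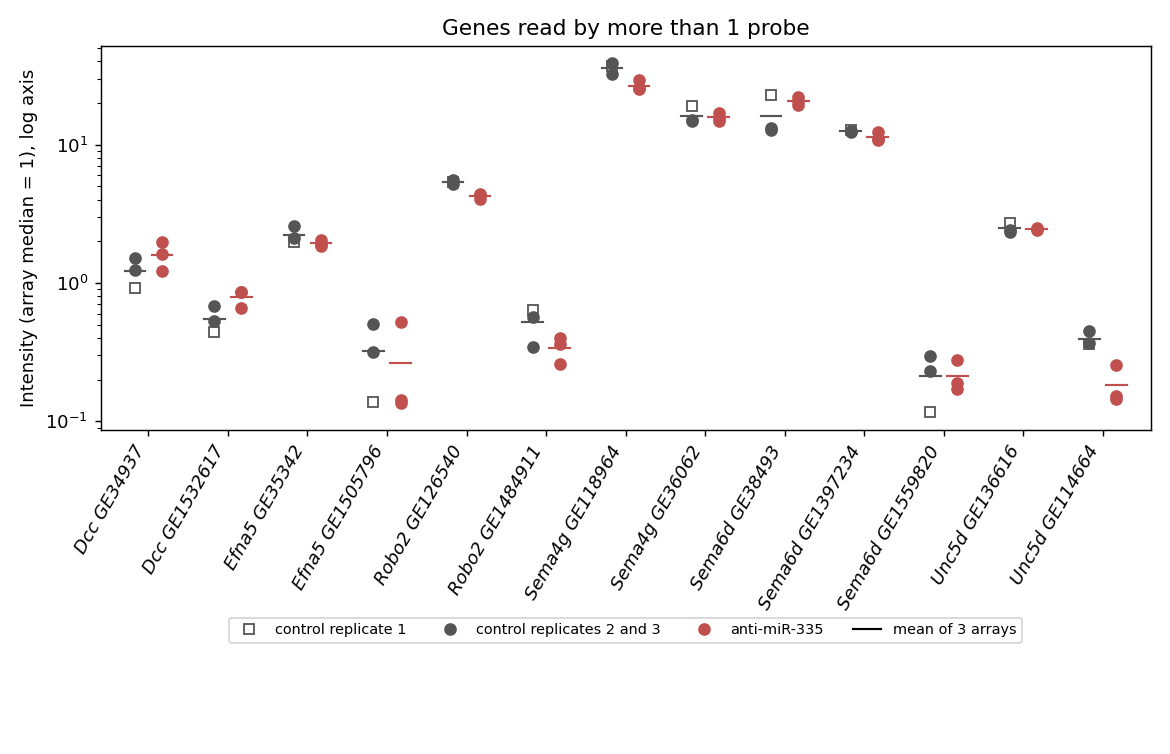
Intensity in units of the array median, on a log axis, for 6 of the genes read by more than 1 probe, each column a probe with the controls left and the anti-miR-335 arrays right; points are arrays, the open square is control replicate 1 and bars are means of 3 arrays. The groups are apart on Sema4g GE118964 and overlap on Sema4g GE36062, and control replicate 1 stands apart from the other controls on Sema6d GE38493.

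Control replicate 1 had the lowest positive control median, and it stood apart from the other controls for several guidance genes. Among probes above background on at least 3 arrays, it lay furthest above the mean of the other controls, on the log2 scale, for Robo1 (1.04), Epha3 GE107388 (1.03), Sema6a (0.89), Nrp2 (0.84), Sema6d GE38493 (0.81), Epha5 GE1496422 (0.79), Plxnd1 (0.55) and Plxnb3 (0.54). It lay furthest below that mean for Plxna4 GE134230 (-1.23), Plxna3 (-1.17), Efna4 (-0.60), Dcc GE34937 (-0.58), Unc5c (-0.57) and Efna2 (-0.53). Without that array, 4 of the 82 member probes passed the test, all higher after anti-miR-335, which is 4.88% of them beside 3.17% of all gene probes (2.27% higher and 0.906% lower). They read Plxnb1, Plxnb3, Plxnd1 and Sema6d, of which Plxnd1 and Sema6d are given here after their values were seen. Whether the technical state of that array had a part in this was not tested.

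Without control replicate 1, Sema6d GE38493 rose by 0.68 ± 0.09 (limma, adjusted p = 0.0165). GE1397234, the other Sema6d probe above background, differed by -0.13 ± 0.09 in that fit (adjusted p = 0.521). Plxnb3 rose by 0.56 ± 0.11 (adjusted p = 0.0316), Plxnb1 by 0.41 ± 0.08 (adjusted p = 0.0359) and Plxnd1 by 0.48 ± 0.11 (adjusted p = 0.0462). The same 4 probes passed when replicate 1 of both groups was left out, beside 4.57% of all gene probes (3.52% higher and 1.05% lower). With arrays weighted by their quality Plxnb1 alone passed (adjusted p = 0.0471), beside 1.36% of all gene probes (0.91% higher and 0.451% lower). Nrp1, Robo2, Epha4 and Sema4g GE118964 stayed above the threshold without control replicate 1, with adjusted p-values of 0.0689, 0.0933, 0.08 and 0.0804. In that fit the control group holds only 2 arrays.

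**Figure D4:**
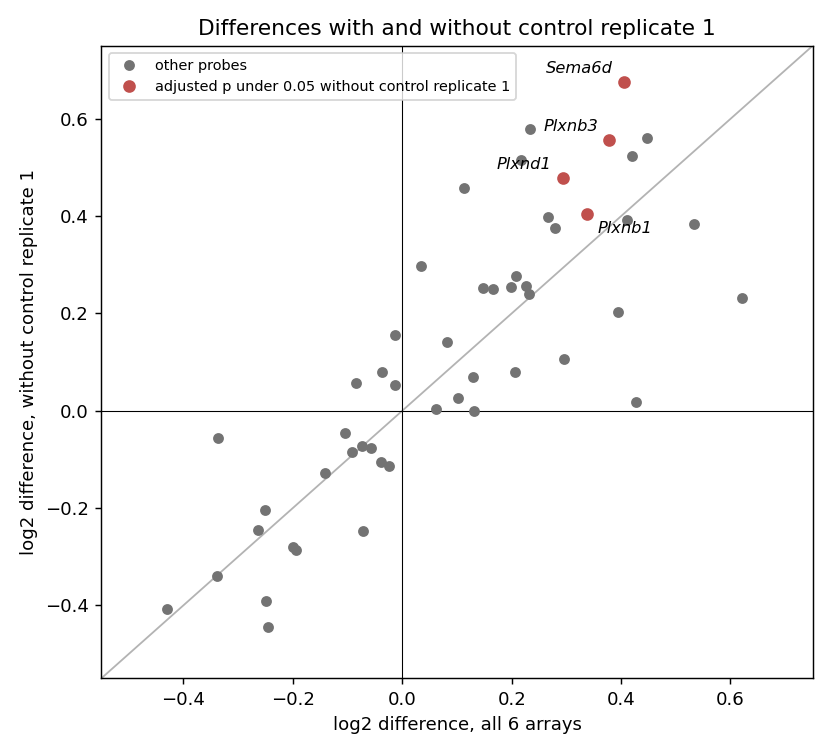
Log2 difference, anti-miR-335 minus control, of each guidance probe above background on at least 3 arrays, with all 6 arrays on the horizontal axis and without control replicate 1 on the vertical axis; the diagonal marks equal values. The 4 marked probes are those with an adjusted p under 0.05 without that array, and all 4 lie above the diagonal.

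The genes of the 4 probes that passed without control replicate 1 are shown because these probes were called together in that fit. For Sema6d the other probe above background did not pass and had the opposite sign. The 150 bases before annotated RefSeq starts (build GRCm38.p6) are printed. Capitals mark GGGCGG on either strand, the GC box that Sp1 binds and the single motif counted. Plxnb1 lies at chr9:109095286-109095435 (plus), Plxnb3 at chrX:73756953-73757102 (plus), Plxnd1 at chr6:115995006-115995155 (minus) and Sema6d, with 2 starts, at chr2:124089819-124089968 and chr2:124653431-124653580 (plus). The RefSeq gene spans begin further out for Plxnb1 (109093849), Plxnb3 (73756556) and Plxnd1 (115995339, minus), so their stretches lie inside the spans. The span of Sema6d begins at 124089943, so its upstream stretch crosses that position and its downstream stretch lies inside the span. The stretches had 3, 0, 1, 1 and 0 matches in the order printed, and their GC content was 82.7%, 67.3%, 74%, 63.3% and 42.7%.
Plxnb1: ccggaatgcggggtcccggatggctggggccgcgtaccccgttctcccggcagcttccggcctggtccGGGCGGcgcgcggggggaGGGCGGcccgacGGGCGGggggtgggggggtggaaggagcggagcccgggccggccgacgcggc
Plxnb3: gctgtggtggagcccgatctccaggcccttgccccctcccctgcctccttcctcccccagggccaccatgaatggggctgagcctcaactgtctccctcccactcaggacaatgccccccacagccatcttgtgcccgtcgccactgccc
Plxnd1: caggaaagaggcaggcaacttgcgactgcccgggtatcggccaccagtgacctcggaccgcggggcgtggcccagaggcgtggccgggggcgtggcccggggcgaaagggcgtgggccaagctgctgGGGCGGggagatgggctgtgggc
Sema6d upstream start: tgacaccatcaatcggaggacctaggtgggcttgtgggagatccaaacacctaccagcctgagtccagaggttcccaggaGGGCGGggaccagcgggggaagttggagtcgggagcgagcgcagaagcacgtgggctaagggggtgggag
Sema6d downstream start: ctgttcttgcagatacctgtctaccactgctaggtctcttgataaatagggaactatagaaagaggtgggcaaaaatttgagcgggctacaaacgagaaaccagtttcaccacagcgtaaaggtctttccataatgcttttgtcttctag

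GGGCGG stood in 50 of the 72 such stretches of 56 member genes (69.4%), beside 41.6% of 17915 stretches of measured genes and 28.6% of all 32851. The median GC content over all 32851 stretches was 54%. That of the member stretches was not analysed here, so the shares are not matched for GC content. A match describes these letters only, and the shares were not tested against each other.

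The wider pathway was read with 1 probe per gene. Of 28 guidance cues and receptors outside the 4 systems, such as repulsive guidance molecules, Flrt proteins and cell adhesion molecules, 26 were measured and 0 passed, with 15 positive and 11 negative differences and a median of 0.04. Dscam, an adhesion receptor that also binds netrin, read 2.23, 2.62 and 3.04 in the controls and 3.64, 4.58 and 4.51 after anti-miR-335. The groups did not overlap, and the log2 difference was 0.70 ± 0.15 (limma, adjusted p = 0.374). Flrt3, a ligand of Unc5 receptors, read 4.34, 4.20 and 4.30 against 6.05, 6.74 and 5.54. Every anti-miR-335 array lay far above the narrow control group, and the log2 difference was 0.51 ± 0.11 (adjusted p = 0.374). Without control replicate 1, Dscam (adjusted p = 0.049), Flrt3 (adjusted p = 0.0365) and Rgma (0.60, adjusted p = 0.0228; a ligand of neogenin, named after its value was seen) passed, all higher. In that fit 3.17% of all gene probes passed, 2.27% higher and 0.906% lower.

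Of 60 intracellular effectors that carry guidance signals to the cytoskeleton, 53 were measured and 0 passed. Their differences were positive for 40 and negative for 13, with a median of 0.12. Of the 53, 48 were above background on at least 3 arrays, and all gene probes above it on at least 3 arrays had a median of 0.03 with 55.7% positive. Cdk5, a kinase that acts downstream of semaphorins, read 15.5, 14.3 and 15.2 in the controls and 17.8, 21.6 and 18.8 after anti-miR-335. Its groups did not overlap, and the log2 difference was 0.37 ± 0.11 (adjusted p = 0.42). Ngef, also called ephexin, an exchange factor that acts downstream of Eph receptors, read 13.1, 14.7 and 17.1 against 20.3, 19.8 and 17.6. The groups did not overlap, and the log2 difference was 0.37 ± 0.12 (adjusted p = 0.46). Without control replicate 1, 1 of the 53 effectors passed, beside 3.17% of all gene probes; it was the adaptor Nck1 (0.52, adjusted p = 0.0235; named after its value was seen).

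Markers of other cells moved beside these values in part. Of 9 neuronal markers, 7 were above background on at least 3 arrays, 8 had positive differences with a median of 0.22, and the summed intensity was 11.9 to 15.9 in the controls and 14.8 to 18.4 after anti-miR-335, ranges that overlapped. Dcx, a microtubule protein of young neurons, was the one without overlap, at 2.42 ± 0.144 in the controls and 4.99 ± 1.18 after anti-miR-335, a log2 difference of 1.02 ± 0.18 (limma, adjusted p = 0.333, and 0.0252 without control replicate 1). The astrocyte markers, all 5 above background, summed to 112 to 128 and 114 to 134, with 4 of 5 differences positive. Among them the water channel Aqp4 lay at 10.5 ± 0.908 and 16.9 ± 1.67 without overlap (log2 difference 0.69 ± 0.11; adjusted p = 0.333, and 0.0159 without control replicate 1).

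Of the 5 microglia and macrophage markers, 2 were above background on at least 3 arrays and Ptprc on none. They went both ways: 3 differences were positive and 2 negative, with a median of 0.23, and 1 marker was higher and 2 were lower without overlap (60%, beside 14.7% of all gene probes). Their summed intensity was 6.39 to 6.73 in the controls and 5.13 to 5.67 after anti-miR-335, without overlap. Most of that sum came from the single marker Trem2, at 4.85 ± 0.221 and 3.27 ± 0.126. Its log2 difference was -0.57 ± 0.11 (limma, adjusted p = 0.367, and 0.0233 without control replicate 1). On average Trem2 fell by more than the sum did, so the lower sum does not describe the other markers. Oligodendrocyte lineage markers, all 5 above background, summed to 15.0 to 38.6 and 23.3 to 49.9, with 2 positive and 3 negative differences. Their log2 differences ran from -0.29 to 1.01, and 2 of these markers were higher without overlap (40%, beside 14.7% of all gene probes). The smallest adjusted p was 0.333 (limma), and 1 marker passed without control replicate 1, higher after anti-miR-335, beside 3.17% of all gene probes. Dcx, Aqp4 and Trem2 are given after their values were seen. The part of such cells in the guidance gene values was not tested.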

How the data were processed

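The deposited values are linear intensities that the authors divided by each array's median, per the labels; the software, per the file headers, was CodeLink Expression Analysis in version 4.1.0.29054. On the replicate 1 arrays, scanner output held the same normalized intensities for all 35976 and 36032 values within 0.0001. Genes were named from the platform annotation and RefSeq (GRCm38.p6); 681 of the 34967 gene probes carry several symbols and 12671 none, and these were left unnamed. Control spots were left out. Intensities under the 5th percentile (0.163) were set to that value before taking log2. The groups were then tested with limma 3.58.1 under R 4.3.3, unpaired and two-sided, with a variance trend over intensity, on 34847 probes, those measured on at least 2 arrays of each group. P-values were Benjamini-Hochberg adjusted over all of them. The background limit was the negative controls' median plus 3 scaled median absolute deviations. Scripts were tested on simulated data.

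The members and gene lists were chosen with earlier results of these data known. Values on every array are given for member probes above background on at least 3 arrays with an unadjusted p under 0.05 or group values that do not overlap, and for the 3 smallest p-values of each of the 4 systems, with the genes' other probes beside them; from each pathway list, up to 4 genes that passed or the 2 of smallest p. Robo1, Plxnd1 and Sema6d did not meet this rule and were added after their values were seen. The number of arrays, 3 per group, limits the precision. Alternatives were quantile normalization, other floors, filters on dim or incomplete probes, no intensity trend, array weights, a replicate block and leaving out arrays.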

Additional observations from a re-analysis of the deposited data

How the results depend on the processing

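With all arrays weighted by quality, 474 of all gene probes, 1 member probe and 3 guidance cues outside the 4 systems passed; weights estimated gene by gene, an alternative chosen after seeing the data, gave 5 gene probes, and quantile normalization gave 1. Leaving out arrays gave 0 to 1571 gene probes, 0 to 4 member probes, 0 to 3 guidance cues and 0 to 2 effectors; the highest counts came without the replicate 1 arrays, control replicate 1 among them. The members' median log2 difference was 0.00 with the floor at the 20th percentile and 0.11 over the 51 probes above background on at least 3 arrays, and ran from -0.030 to 0.073 over arrays left out. Directions turned for Slit2 GE33354 (-0.028 with the floor at the 20th percentile, -0.12 with array weights, -0.080 gene by gene, -0.20 to 0.23 over arrays left out) and Sema6d GE1559820 (0.070 with the floor at the 1st percentile, -0.32 to 0.11 over arrays left out), both dim. They also turned for Sema4g GE36062 (0.050 with array weights, 0.039 gene by gene, -0.10 to 0.13 over arrays left out), Slit2 GE111774 (-0.0098 to 0.41) and Robo1 (-0.027 to 0.58). The cause was not tested. Without an intensity trend and with complete probes only, all 26 probes with values on every array kept their direction and their side of the threshold.

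Same-numbered samples did not deviate together: the correlations of their deviations were -0.23, 0.04 and -0.26 over 17843 probes. Differently numbered samples were not correlated beside them, so these values cannot decide whether same-numbered cultures were made together. With the replicate number as a block, 0 member probes passed (smallest adjusted p = 0.753), and the 26 probes kept their direction.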
